A study of Mus musculus with 48 samples.

Results

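Whether the oncogenes beta-catenin and MYC change gene levels together as the product of their single effects was examined in mouse liver 4 days after induction, as the 2 by 2 interaction (BM minus B) minus (M minus WT) on the log2 scale. All 24 day 4 libraries entered, 12 of cytoplasmic RNA and 12 of ribosome-protected fragments (RPFs), out of 48 libraries in the series, and they came from 12 of 24 mice. Each genotype had 3 mice, and each mouse gave both libraries. The groups were WT (Wild-type), B (Ctnnb1ex3/+, an allele in which recombination removes exon 3 of beta-catenin), M (R26-LSL-MYC, a human MYC transgene behind a stop cassette at the Rosa26 locus) and BM (Ctnnb1ex3/+; R26-LSL-MYC). The labels give all mice as males aged 2 to 4 months, and all of them, WT included, received AAV8.TBG.Cre, so that the virus itself was common to all groups. The labels give the dose of 2e+11 genome copies as per ml in one place and as per mouse in another. The TBG promoter confines Cre to hepatocytes, whereas the libraries were made from whole liver, in which fewer cells of a type and less RNA per cell cannot be told apart.

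Loss of exon 3 removes the phosphorylation sites through which beta-catenin is marked for destruction, and the stabilised protein then acts with TCF factors in the nucleus. In liver this signal normally runs in zone 3 (pericentral) hepatocytes, where it drives glutamine synthesis and many cytochromes P450, and it opposes the zone 1 (periportal) programme of urea synthesis, gluconeogenesis and amino acid breakdown. MYC, as a dimer with MAX, binds E-box sequences and raises ribosome biogenesis, nucleotide synthesis and cell cycle entry.

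The level of a gene is given as CPM, the count scaled to library size with TMM factors, in mice 1, 2 and 3 of a group. The interaction is given as the fitted log2 value ± SE from edgeR's quasi-likelihood test, with an adjusted p (Benjamini-Hochberg over all genes of the assay) and a threshold of 0.1. A positive value means that BM stood above the level at which the fold changes of B and of M against WT would multiply, and is called here above the sum, since fold changes add on the log2 scale. A negative value is called below the sum. Where the sum is a fall, a BM level above it can be a smaller fall or lie above WT, and where the sum is a rise, a BM level below it can be a smaller rise or lie below WT. Single effects against WT are given as fitted log2 values and carry no call. The p-values set an interaction against the spread between the mice within these groups.

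Library totals ranged from 4537343 to 6540116 expected counts for RNA and from 9742197 to 13888368 for RPFs. Markers of hepatocytes were abundant in each library, and their summed RNA level was 141600 to 148800 CPM in WT, 115200 to 136900 in B, 91840 to 112800 in M and 70800 to 85830 in BM. Kupffer cell markers summed to 401 to 464 CPM of RNA in WT and 173 to 207 in BM, and to 719 in M mouse 2 against 247 and 338 in the other M mice. Glul, the glutamine synthetase of zone 3 and a target of beta-catenin, stood at 753, 632 and 626 CPM of RNA in WT, 2639, 3694 and 4246 in B, 504, 632 and 416 in M, and 3295, 4424 and 3789 in BM. The labelled B and BM libraries were thus all above the others for Glul. The rows named Myc are the mouse gene and Ctnnb1 is counted as a whole gene, so neither checks the allele itself. WT mice 1 and 3 had high acute phase counts, and M mouse 3 had RPFs of pancreatic acinar enzymes, a list summing to 1809 CPM against 29.1 to 43.5 in the other 11 libraries.

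At day 4 the liver with both oncogenes departed from the product of the single effects in RNA of 1479 of 11523 genes tested (12.8%) and in RPFs of 2286 of 11577 (19.7%). In RNA 641 genes were above the sum (5.56%) and 838 below it (7.27%). In RPFs 974 were above (8.41%) and 1312 below (11.3%). An unadjusted p under 0.05 was reached by 2613 genes in RNA, where 576 would be reached with no interaction anywhere, and by 3221 in RPFs, where the number would be 579. The median interaction of all genes was 0.02 in RNA and -0.02 in RPFs. TMM scaling centres each library, so a change common to all genes could not be seen here. Called genes had a median of 0.72 above and -0.74 below in RNA, and 0.65 and -0.64 in RPFs. An absolute interaction of at least 1 on the log2 scale was reached in RNA by 196 called genes above and 240 below, and of at least 2 by 30 and 39. By the sign of the sum of the fitted single effects, BM stood above the sum in RNA of 174 genes whose sum was a rise and of 467 whose sum was a fall, and below it in 173 whose sum was a fall and 665 whose sum was a rise. In RPFs these numbers were 297, 677, 295 and 1017. BM lay on the other side of WT from the sum, which is neither a smaller rise nor a smaller fall, in 297 of the 467 and 428 of the 665 in RNA, and in 378 of the 677 and 639 of the 1017 in RPFs. For some genes, such as Hal, that sum was itself close to 0. The sum and the interaction share the WT, B and M libraries with opposite signs, which by itself favours an interaction opposite in sign to the sum. Without WT mice 1 and 3 the counts above and below were 167 and 390 in RNA and 284 and 507 in RPFs. Among single removals, the RNA count above was 423 when WT mouse 1 was left out, 360 for WT mouse 3, 419 for B mouse 2, 397 for M mouse 1, 424 for M mouse 2 and 374 for BM mouse 1.

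**Figure D1:**
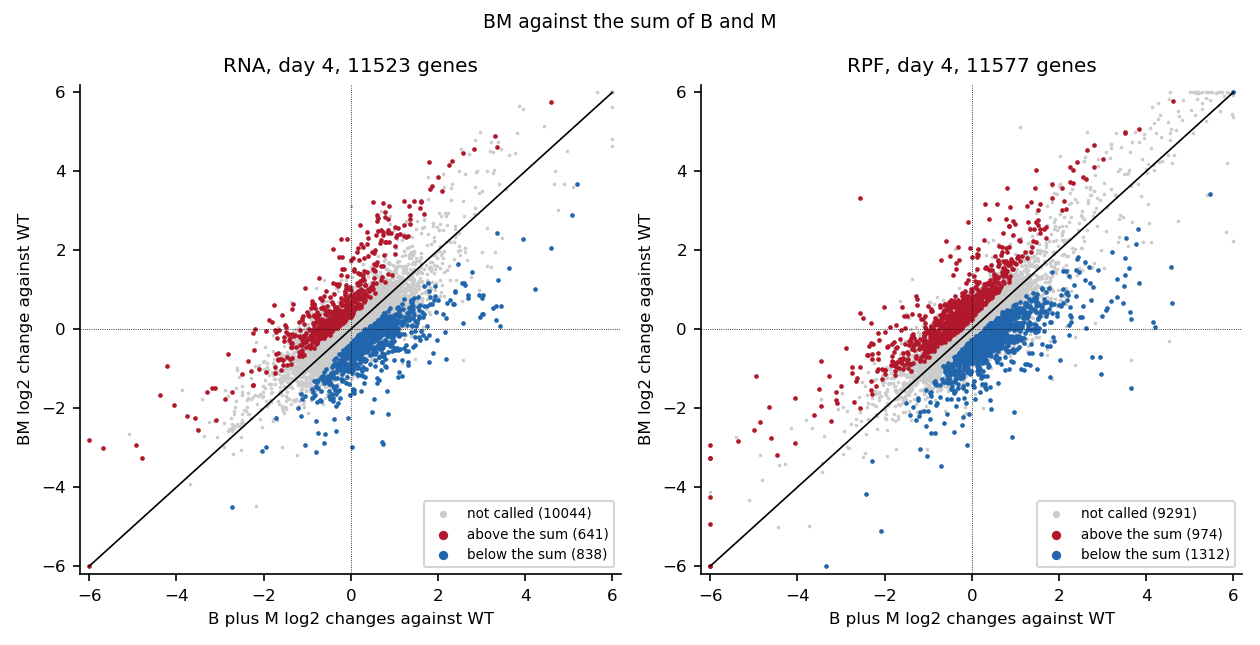
Fitted log2 change of BM against WT (vertical axis) plotted against the sum of the fitted log2 changes of B and M (horizontal axis) for each gene tested, RNA and RPF in separate panels, with called genes coloured. Grey genes lie along the diagonal, where BM equals the sum, 641 red genes lie above it and 838 blue genes below it in RNA, and values beyond 6 are drawn at the edge.

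BM was the outermost group in many of the called genes, which does not say that B and M equalled WT. All 3 BM mice were below the 9 other mice in 380 of the 838 RNA genes below the sum (45.3%), whereas this placement was found in 8.17% of all genes tested. All 3 BM mice were above the 9 others in 328 of the 641 RNA genes above the sum (51.2%, against 9.79% of all). In RPFs the placement held for 613 genes below (46.7%, against 11.0% of all) and 495 above (50.8%, against 12.2%). A smaller number of calls came from WT. All 3 WT mice were above the 9 others in 68 of the RNA genes above the sum (10.6%, against 4.00% of all) and in 140 RPF genes (14.4%, against 5.42%). WT was lowest in 78 RNA genes below the sum (9.3%, against 3.26%) and in 144 RPF genes (11.0%, against 5.00%). Calls and placements rest on the same libraries, so a share among called genes above that of all genes was favoured by the selection. Among 10808 genes tested in both assays, 664 were below the sum in both, which is 80.2% of those below in RNA and 52.5% of those below in RPFs. Above the sum in both were 340, or 54.5% of the RNA and 35.7% of the RPF calls. The assays came from the same mice, so these overlaps are a description and not a second test. Ugt1a8 was called below in RNA (-0.53) and above in RPFs (0.68), in a gene cluster with shared sequence, and Cenpu was above in RNA (1.93) with no RPF in any WT mouse. Both were named after their values were seen.

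The promoters of genes on either side of the sum are shown because MYC with MAX binds the E-box CACGTG and TCF factors bind CTTTGAT, and they were picked from called genes whose promoter holds either of these motifs. Each is the RefSeq stretch around the start of the gene on GRCm38.p6, plus strand, in lower case with the motif in capitals. Aqp8 (chr7:123462044-123462343) and Hal (chr10:93488518-93488817) had among the lowest interactions, and Wdr43 (chr17:71615965-71616264) and Slc1a2 (chr2:102706188-102706487) were above the sum. CACGTG was searched as it stands, being its own reverse complement, and CTTTGAT on both strands, where ATCAAAG is the match on the other strand.
Aqp8: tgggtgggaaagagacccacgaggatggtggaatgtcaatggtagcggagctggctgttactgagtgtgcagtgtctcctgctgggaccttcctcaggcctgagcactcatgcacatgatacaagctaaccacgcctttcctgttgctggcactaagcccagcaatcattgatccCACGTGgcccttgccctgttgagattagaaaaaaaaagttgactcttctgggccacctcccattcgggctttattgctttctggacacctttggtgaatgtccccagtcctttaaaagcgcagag
Hal: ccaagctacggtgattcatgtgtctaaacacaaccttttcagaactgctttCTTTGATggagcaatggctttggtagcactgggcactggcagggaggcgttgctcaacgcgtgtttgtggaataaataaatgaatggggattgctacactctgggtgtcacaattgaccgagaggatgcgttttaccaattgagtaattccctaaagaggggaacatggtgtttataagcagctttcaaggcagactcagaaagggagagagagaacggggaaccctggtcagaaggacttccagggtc
Wdr43: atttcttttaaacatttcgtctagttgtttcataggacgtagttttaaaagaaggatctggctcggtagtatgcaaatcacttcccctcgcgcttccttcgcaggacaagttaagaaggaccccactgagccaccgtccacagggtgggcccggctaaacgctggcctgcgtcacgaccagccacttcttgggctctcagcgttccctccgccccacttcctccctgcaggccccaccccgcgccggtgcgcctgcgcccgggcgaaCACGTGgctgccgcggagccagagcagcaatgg
Slc1a2: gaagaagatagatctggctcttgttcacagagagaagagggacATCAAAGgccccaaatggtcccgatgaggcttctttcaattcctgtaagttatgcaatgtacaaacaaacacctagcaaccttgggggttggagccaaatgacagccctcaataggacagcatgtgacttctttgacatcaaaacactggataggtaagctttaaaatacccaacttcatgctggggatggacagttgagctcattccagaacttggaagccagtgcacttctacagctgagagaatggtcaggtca
Counted from the start of the gene, the motif began at -75 in Aqp8, -199 in Hal, 18 in Wdr43 and -207 in Slc1a2. CACGTG was in 7.2% of all 27025 promoters, in 10.2% of those of genes tested in RNA, in 10.9% of those above the sum in RNA and in 8.1% of those below. CTTTGAT was in 3.7% of all promoters, in 2.5% of those tested, in 2.7% of those above and in 2.2% of those below. In RPFs the shares above and below were 12.7% and 8.2% for CACGTG, and 1.9% and 2.2% for CTTTGAT. Of 25 ribosome biogenesis genes with a promoter in the table, 6 (24%) had CACGTG, as had 6 of 24 (25.0%) of nucleotide and polyamine synthesis, 3 of 16 (18.8%) of cholesterol synthesis and uptake and 2 of 12 (16.7%) of zone 1. Lower shares were found in unfolded protein response chaperones (2 of 17, 11.8%), lipogenesis (1 of 14, 7.1%), amino acid catabolism (1 of 24, 4.2%) and acute phase proteins (none of 19). CTTTGAT was in 3 of 24 promoters of amino acid catabolism (12.5%) and 1 of 12 of zone 1 (8.3%), and in none of the promoters of the other 6 lists searched. A match is a description of letters and was not tested.

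Most zone 1 hepatocyte genes were below the sum. Of 20 tested, 16 were below in RNA (against 7.27% of all genes) and the same 16 in RPFs (against 11.3%), none was above, and the median interaction was -1.18 and -1.19. Hal, the histidine ammonia-lyase that opens histidine breakdown, stood at 229, 269 and 301 CPM of RNA in WT, 333, 170 and 178 in B, 336, 298 and 322 in M, and 36.3, 29.3 and 36.0 in BM. Every BM mouse was under all the other mice, while B and M each overlapped WT. The interaction of Hal was -3.01 ± 0.27 in RNA (adjusted p = 4.81e-06) and -2.83 ± 0.26 in RPFs (adjusted p = 5.13e-05), and multiplied fold changes would have given 272 CPM of RNA. Etnppl, the ethanolamine-phosphate phospho-lyase, also had BM under all the other mice, but its M mice were above WT, with 74.8, 91.3 and 77 CPM of RNA in WT, 138, 71.2 and 77.7 in B, 140, 108 and 128 in M, and 23.6, 14.3 and 16.7 in BM. Its interaction was -3.01 ± 0.29 in RNA and -3.05 ± 0.35 in RPFs.

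Pck1, the cytosolic enzyme that commits oxaloacetate to gluconeogenesis, differed from Hal in that both single genotypes were already low. Its RNA level was 1348, 2000 and 1451 CPM in WT, 571, 341 and 545 in B, 878, 835 and 699 in M, and 27.8, 75.8 and 111 in BM, with no overlap between BM and any other group. The fitted effects were -1.72 in B, -0.99 in M and -4.49 in BM, an interaction of -1.78 ± 0.42 (adjusted p = 0.0137) in RNA and of -1.73 ± 0.43 in RPFs. Pck1 thus fell beyond the sum. Cps1, the mitochondrial carbamoyl phosphate synthetase that feeds the urea cycle, stood at 4222, 3630 and 4193 CPM of RNA in WT, 3261, 3307 and 3678 in B, 4774, 4397 and 4492 in M, and 2244, 2239 and 1930 in BM. Its interaction was -0.86 ± 0.16 in RNA (adjusted p = 0.00296) and -0.83 ± 0.12 in RPFs.

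The same direction ran through lists of nitrogen metabolism, which in part hold the genes of the zone 1 list. Cps1, Ass1, Asl, Arg1 and Gls2 of the urea cycle and Tat, Hal, Uroc1, Ftcd and Sds of amino acid catabolism are in both. Of 30 genes of amino acid catabolism, 23 were below in RNA (against 7.27% of all genes) and 27 in RPFs (against 11.3%). None was above. Of 15 genes of the urea cycle and nitrogen handling 9 and 10 were below. In RNA 1 was above (against 5.56% of all genes). That count was 0 without WT mouse 1, B mouse 1, M mouse 1 or 3, or BM mouse 1 or 3. Gnmt, the glycine N-methyltransferase that disposes of methyl groups, was at 652, 723 and 689 CPM of RNA in WT, 761, 562 and 643 in B, 900, 885 and 874 in M, and 259, 303 and 246 in BM. M mice were the highest and BM mice the lowest, without overlap. The interaction of Gnmt was -1.65 ± 0.15 in RNA and -1.46 ± 0.14 in RPFs. Agxt, the alanine-glyoxylate aminotransferase of peroxisomes, had the same order of groups, with 83.4, 116 and 100 CPM in WT and 30.8, 38.6 and 35 in BM, and an interaction of -1.57 ± 0.16 in RNA. Otc, the next urea cycle enzyme after Cps1, had an interaction of -0.52 ± 0.13 (adjusted p = 0.017).

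Most lipogenic genes were below the sum, and for most of those called the fitted single effects summed to a rise that BM did not reach. Of 16 lipogenic genes tested in RNA 11 were below (against 7.27% of all genes), and of 17 in RPFs 12 (against 11.3%). None was above, and the medians were -0.91 and -1.03. Acly, which makes cytosolic acetyl-CoA from citrate, was at 369, 314 and 348 CPM of RNA in WT, 497, 578 and 633 in B, 580, 407 and 517 in M, and 298, 209 and 201 in BM. Each single genotype was above WT in every mouse, and each BM mouse was below every WT mouse. Its interaction was -1.81 ± 0.21 in RNA (adjusted p = 4.54e-05) and -1.98 ± 0.25 in RPFs. Thrsp, a regulator of lipogenesis, was at 59.3, 40.7 and 43.0 CPM in BM against 99.6 to 296 in the 9 other mice, an interaction of -2.30 ± 0.34. Fasn, the fatty acid synthase, differed in that BM stayed above WT in RNA. It stood at 307, 209 and 321 CPM in WT, 379, 513 and 530 in B, 572, 425 and 460 in M, and 420, 420 and 338 in BM, so that BM overlapped B and not M. The interaction of Fasn was -1.07 ± 0.22 in RNA and -1.08 ± 0.29 in RPFs.

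Of 23 genes of cholesterol synthesis and uptake 9 were below in RNA (against 7.27% of all genes) and 13 in RPFs (against 11.3%). None was above the sum. The RNA count was 5 without M mouse 1 and 5 without BM mouse 3. Hmgcs1, the cytosolic HMG-CoA synthase of the sterol pathway, was at 418, 308 and 355 CPM of RNA in WT, 624, 868 and 692 in B, 384, 315 and 308 in M, and 419, 335 and 284 in BM. B was above all other groups, and BM overlapped WT and M. The interaction of Hmgcs1 was -0.97 ± 0.21 in both RNA and RPFs. Bile acid synthesis and transport had 8 of 18 genes below the sum in RNA and 10 of 19 in RPFs, against the same shares of all genes. In RPFs 1 was above (against 8.41% of all genes). That count was 0 without WT mouse 1 or 2, B mouse 3, M mouse 1 or 3, or BM mouse 1 or 2. Cyp8b1, the 12-alpha-hydroxylase that sets the proportion of cholic acid, was at 297, 328 and 309 CPM of RNA in WT, 322, 191 and 176 in B, 331, 336 and 330 in M, and 70.4, 54.2 and 32.6 in BM, without overlap of BM with the others. Its interaction was -2.22 ± 0.29 in RNA and -2.21 ± 0.31 in RPFs. Cyp7a1, the rate-limiting enzyme of bile acid synthesis and chosen for its role after its values were seen, had -1.03 ± 0.38 in RNA (adjusted p = 0.109) and was called in RPFs (-1.24 ± 0.37, adjusted p = 0.0408).

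**Figure D2:**
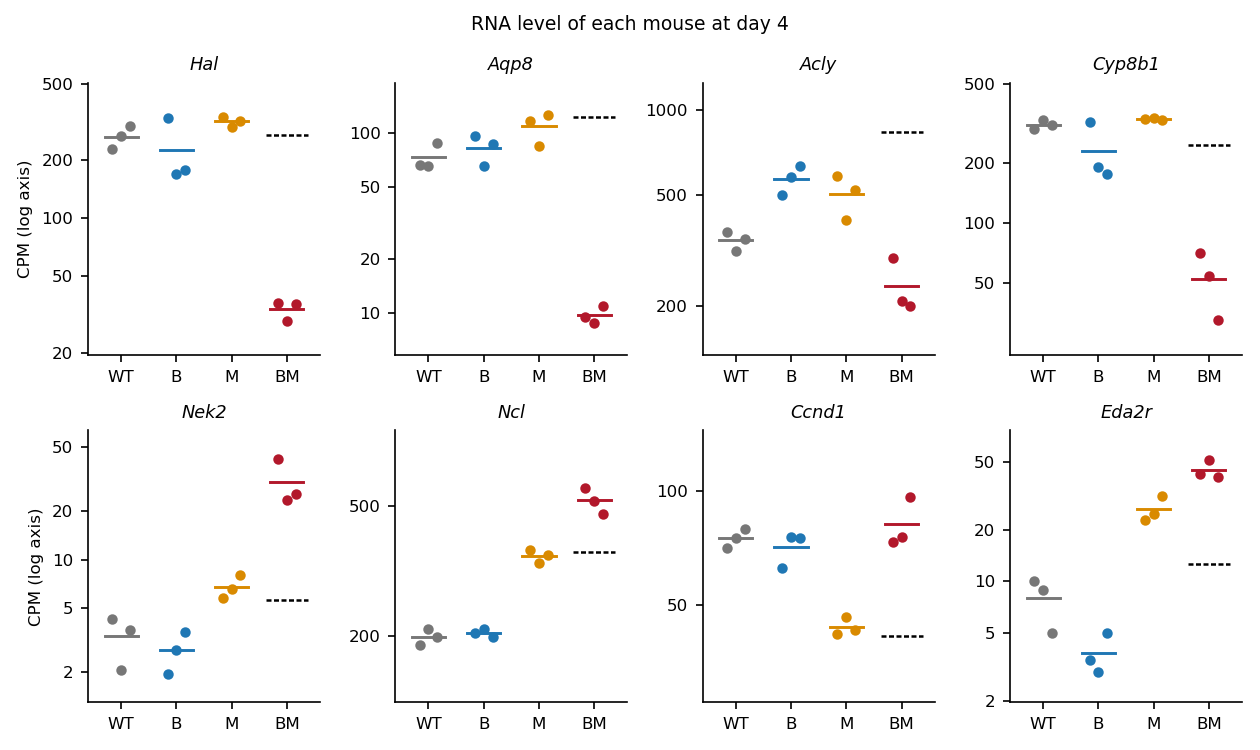
RNA level in CPM (log axis) of Hal, Aqp8, Acly, Cyp8b1, Nek2, Ncl, Ccnd1 and Eda2r in each of the 3 mice of WT, B, M and BM (points), with the group mean as a bar and, over BM, a dashed tick at the level that multiplied fold changes would give. For Hal, Aqp8, Acly and Cyp8b1 the BM points lie under the tick, and for Nek2, Ncl, Ccnd1 and Eda2r over it.

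Cytochromes P450 are oxidases of drugs, sterols and fatty acids. Of these 26 of 65 tested were below the sum in RNA (against 7.27% of all genes) and 33 of 63 in RPFs (against 11.3%). In each assay 3 were above (against 5.56% and 8.41%). The RNA count above was 1 when WT mouse 1, B mouse 2, M mouse 1 or BM mouse 2 was left out, and the RPF count was 1 for WT mouse 1. Members of the Cyp2c family share sequence, so their counts are uncertain. Cyp2c37 stood at 117, 126 and 117 CPM of RNA in WT, 288, 405 and 455 in B, 233, 229 and 235 in M, and 221, 251 and 309 in BM. BM overlapped B and M and lay above WT, so the fold changes did not multiply to the 741 CPM of the product, and the interaction was -1.51 ± 0.20. Of 22 zone 3 hepatocyte genes 2 were above and 5 below in RNA (against 5.56% and 7.27% of all genes), and 3 above and 7 below in RPFs (against 8.41% and 11.3%). The RNA count below was 3 without BM mouse 3, the RNA count above was 1 without WT mouse 1, WT mouse 3 or M mouse 2, and the RPF count above was 1 when WT mouse 1, WT mouse 3, M mouse 1 or BM mouse 2 was left out. No zone 3 gene was above in either assay without WT mice 1 and 3. Slc1a2, a glutamate transporter of zone 3, was at 188, 131 and 148 CPM of RNA in WT, 268, 299 and 592 in B, 125, 147 and 141 in M, and 758, 985 and 729 in BM, with BM above all other mice. Its interaction was 1.27 ± 0.31 in RNA (adjusted p = 0.0159). In RPFs the interaction of Slc1a2 was 0.78 ± 0.28 (adjusted p = 0.0862), between 0.61 and 1.18 when single mice were left out, and the call was lost without any one of 10 of the 12 mice (all but B mouse 3 and BM mouse 3). Glul gave 0.49 ± 0.24 in RNA (adjusted p = 0.236). Axin2, a feedback inhibitor of beta-catenin, gave 0.69 in RNA (adjusted p = 0.42) and was called in RPFs (0.89, adjusted p = 0.0638), a call that was lost when WT mouse 2 or 3, B mouse 1 or 3, M mouse 1 or 3, or BM mouse 1 or 2 was left out.

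Of the IGF axis and hepatokines, secreted regulators of growth and metabolism, 5 of 18 genes were below the sum in RNA and 7 of 19 in RPFs. Of all genes 7.27% and 11.3% were below. In each assay 1 of the list was above (against 5.56% and 8.41% of all genes), and 12 and 11 were not called. The RNA count below was 3 when WT mouse 3, B mouse 1, M mouse 1 or BM mouse 1 was left out, and the RPF count was 4 for B mouse 2 or BM mouse 1. The RNA count above was 0 without WT mouse 2, B mouse 1, M mouse 1 or 2, or BM mouse 1, 2 or 3. Igf1, the hepatic growth factor of the circulation, was at 806, 829 and 841 CPM of RNA in WT, 972, 964 and 882 in B, 884, 643 and 795 in M, and 437, 432 and 468 in BM. All BM mice were under the other 9, and the interaction was -0.98 ± 0.15 in RNA and -0.93 ± 0.13 in RPFs. Igfbp2, which binds IGFs, had -1.13 ± 0.20 in RNA and -0.91 ± 0.16 in RPFs, with BM at 90.3, 96.3 and 62.5 CPM against 97.9 to 155 in the others.

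The most negative RNA interaction among the genes described was that of Aqp8, a water channel of the hepatocyte. Aqp8 was at 66.3, 65.2 and 87.7 CPM in WT, 95.2, 65.1 and 86.2 in B, 116, 84.4 and 125 in M, and 9.61, 8.81 and 10.9 in BM. Multiplied fold changes would give 122 CPM, and the interaction was -3.63 ± 0.24 in RNA (adjusted p = 1.9e-07) and -3.64 ± 0.23 in RPFs (adjusted p = 1.79e-06). Other genes were higher with either oncogene alone than with both. Sucnr1, the receptor of extracellular succinate, was at 14.9, 22.7 and 20.7 CPM of RNA in WT, 52.2, 64.3 and 59.8 in B, 61.4, 52.1 and 73.9 in M, and 28.5, 25.3 and 31.6 in BM. BM lay between WT and the single genotypes without overlap, for an interaction of -2.72 ± 0.21 in RNA and -2.56 ± 0.18 in RPFs. Fam13a was at 8.53, 8.45 and 11.8 CPM in WT, 17.4, 22.2 and 23.9 in B, 51.6, 42.8 and 37.1 in M, and 14.5, 14.6 and 14.2 in BM, so that M was the highest group and BM lay between WT and B. Its interaction was -2.75 ± 0.23 in RNA and -2.81 ± 0.36 in RPFs. Srgap3, a GTPase-activating protein of the Slit and Robo pathway, had -3.32 ± 0.41 in RNA and -4.13 ± 0.47 in RPFs at low counts, with B at 21.3, 11.4 and 14.8 CPM of RNA and BM at 5.49, 3.16 and 3.42. Nr4a1, an immediate early nuclear receptor, also had low counts, at 0.762, 2.16 and 0.512 CPM of RNA in BM against 1.49 to 5.89 in the others, overlapping WT, with -2.95 ± 0.56.

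Calls among cell cycle genes were almost all above the sum. Of 95 S and G2/M genes tested in RNA 42 were above (against 5.56% of all genes), none below and 53 not called. Of 96 in RPFs 30 were above (against 8.41%), 1 below and 65 not called. The medians were 0.92 and 0.72. The gene below was Cenpu, which had no RPF in any WT mouse. That count was 0 without WT mouse 1, 2 or 3, B mouse 2 or 3, M mouse 1, 2 or 3, or BM mouse 2. In RNA 33 of the 42 rose beyond the sum. Nek2, a kinase of centrosome separation, was at 4.26, 2.06 and 3.64 CPM of RNA in WT, 1.93, 2.75 and 3.54 in B, 5.78, 6.60 and 7.96 in M, and 42.5, 23.4 and 25.6 in BM. B overlapped WT, M lay above it and BM was above all, and the product of the fold changes would be 5.59 CPM. The interaction of Nek2 was 2.46 ± 0.48 in RNA (adjusted p = 0.00416) and 1.47 ± 0.25 in RPFs (adjusted p = 0.00224). Smc4, a condensin subunit, was at 33.7, 40.8 and 42.0 CPM in WT, 38.7, 37.5 and 43.7 in B, 48.5, 52.7 and 57.6 in M, and 200, 124 and 129 in BM, with 1.47 ± 0.22 in RNA and 0.98 ± 0.25 in RPFs. Hmgb2, a chromatin protein of dividing cells, had 1.41 ± 0.21 in RNA and 1.61 ± 0.28 in RPFs. BM mouse 1 was the highest of the BM mice for Nek2, Smc4 and Hmgb2. Without it 34 members were above the sum in RNA and 25 in RPFs, and single removals gave 28 to 50 and 22 to 40. Without WT mice 1 and 3 together the counts were 17 and 11.

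Mki67, the Ki-67 antigen of dividing cells, had a large BM effect of which most was within the sum. It was at 4.69, 3.92 and 4.32 CPM of RNA in WT, 7.93, 12.9 and 10.2 in B, 33.0, 50.7 and 45.9 in M, and 305, 189 and 202 in BM. The groups did not overlap, and BM was 5.75 above WT on the log2 scale. The interaction was 1.16 ± 0.38 in RNA (adjusted p = 0.0736), which did not pass without WT mouse 1, 2 or 3, B mouse 1 or 3, or M mouse 1 (0.91 to 1.33 over all removals), and 0.48 ± 0.52 in RPFs (adjusted p = 0.593). Golm1, a Golgi membrane protein outside the cell cycle list, was at 4.48, 2.27 and 4.09 CPM of RNA in WT, 3.09, 1.18 and 2.71 in B, 3.97, 5.06 and 3.14 in M, and 12.0, 20.1 and 12.6 in BM. Only BM was separated from the other groups for Golm1, and its interaction was 2.46 ± 0.49 in RNA and 1.82 ± 0.34 in RPFs.

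Among 19 G1 cyclins, kinases and inhibitors, 4 were above the sum in RNA (against 5.56% of all genes) and 6 in RPFs (against 8.41%). None was below. The RNA count was 2 when WT mouse 2, WT mouse 3, B mouse 1, M mouse 1, M mouse 2 or BM mouse 1 was left out. Ccnd1, the cyclin D1 that starts G1 progression, was at 70.6, 75.2 and 79.5 CPM of RNA in WT, 62.9, 75.5 and 75.2 in B, 42.1, 46.6 and 43.1 in M, and 73.2, 75.5 and 96.3 in BM. M alone was under all others and BM overlapped WT, so the lower level of M was not seen in BM. The interaction of Ccnd1 was 0.97 ± 0.16 in RNA (adjusted p = 0.00109) and 1.83 ± 0.29 in RPFs (adjusted p = 0.00129). Of 20 p53 targets and apoptosis regulators 11 were above the sum in RNA (against 5.56% of all genes). In 9 of them the single effects summed to a fall BM did not reach, and in 6 of these BM was above WT. Of 21 in RPFs 10 were above and 1 below (against 8.41% and 11.3%). In RNA the count was 7 when WT mouse 2, WT mouse 3 or B mouse 2 was left out, and without WT mice 1 and 3 it was 5 in each assay. Cdkn1a, the p21 inhibitor of cyclin-dependent kinases, was at 52.9, 54.0 and 45.0 CPM of RNA in WT, 7.93, 20.6 and 22.1 in B, 39.2, 27.2 and 32.5 in M, and 33.7, 43.7 and 28.5 in BM. B had the lowest level and BM overlapped M, with an interaction of 1.70 ± 0.33 in RNA and 1.53 ± 0.35 in RPFs. Eda2r, a death-domain family receptor induced by p53, was lower in B (-1.08) and higher in M (1.71), and BM was highest at 42.4, 51.0 and 41.0 CPM against 22.7, 24.7 and 31.6 in M. Its interaction was 1.85 ± 0.32 in RNA and 2.00 ± 0.37 in RPFs.

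Ribosome biogenesis factors that were called were all above the sum, with smaller values. Of 30 tested, 13 were above in RNA (against 5.56% of all genes) and 20 in RPFs (against 8.41%). The other 17 and 10 were not called, and the medians were 0.38 and 0.54. The RNA count was 7 without WT mouse 3 and 8 without BM mouse 1, and without WT mice 1 and 3 it was 4 in both assays. Ncl, the nucleolin of the nucleolus, was at 187, 209 and 198 CPM of RNA in WT, 204, 210 and 197 in B, 365, 334 and 353 in M, and 569, 519 and 472 in BM. B overlapped WT, M was above both and BM above M in every mouse, with an interaction of 0.53 ± 0.12 in RNA (adjusted p = 0.0137) and 0.82 ± 0.15 in RPFs (adjusted p = 0.0029). Nop56, a protein of the small nucleolar particles that methylate rRNA, had 0.92 ± 0.18 in RNA and 0.88 ± 0.17 in RPFs. Wdr43, a factor of the small subunit processome, stood at 36.2, 31.3 and 38.9 CPM of RNA in WT, 36.7, 36.3 and 31.7 in B, 47.3, 49.0 and 54.0 in M, and 86.3, 72.7 and 66.8 in BM. Its order of groups was that of Ncl, with 0.61 ± 0.16 in RNA and 0.82 ± 0.15 in RPFs, and the RNA call was lost without WT mouse 3 (0.51). For cytosolic ribosomal proteins none of 83 was above and 1 below in RNA, and in RPFs 10 of 79 were above (against 8.41% of all genes), all at values up to 0.70, while 74 of the 79 had a positive interaction (against 48% of all genes). The RNA count below was 8 without WT mouse 2, 3 without BM mouse 2, 2 without B mouse 3 or M mouse 3, and 0 without M mouse 1, BM mouse 1 or BM mouse 3. That RPF count was 1 without WT mouse 3, M mouse 2 or BM mouse 2, 3 without B mouse 3, 5 without BM mouse 1, 6 without WT mouse 1 or B mouse 1, and 23 without WT mouse 2.

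Rrm1 and Tyms of nucleotide and polyamine synthesis, above in both assays, are also in the cell cycle list. Of 28 genes of the former list 6 were above and 1 below in RNA (against 5.56% and 7.27% of all genes). In RPFs 10 were above and 2 below (against 8.41% and 11.3%). Without WT mice 1 and 3 the counts above were 1 and 3 with none below. The count below was 0 in RNA without B mouse 3 or BM mouse 1, and 1 in RPFs without WT mouse 1, B mouse 3 or M mouse 1. Cad, which starts pyrimidine synthesis, was at 39.3, 38.3 and 43.3 CPM of RPFs in WT, 23.8, 24.8 and 34.0 in B, 69.6, 67.8 and 80.7 in M, and 140, 108 and 109 in BM. B was under WT and BM above M without overlap, for an interaction of 1.26 ± 0.19 in RPFs and 0.81 ± 0.21 in RNA. Srm, the spermidine synthase, had the same order of group means, with 1.03 ± 0.21 in RPFs and 0.65 ± 0.17 in RNA. Phgdh, which commits 3-phosphoglycerate to serine synthesis and is described for its RPFs, was at 1.41, 0.934 and 0.653 CPM of RPFs in WT, 1.06, 0.721 and 1.39 in B, 1.29, 1.35 and 0.980 in M, and 9.13, 13.3 and 5.28 in BM, an interaction of 2.87 ± 0.63 (adjusted p = 0.00938). Only BM was separated for Phgdh. Its RNA interaction was 0.13 ± 0.39 (adjusted p = 0.888), and the difference between the assays was not tested here. Psat1, the next enzyme, had 2.12 ± 0.38 in RPFs (adjusted p = 0.00285) and 1.22 ± 0.84 in RNA (adjusted p = 0.422).

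A further set above the sum was high in WT and low in every other genotype. Of 19 unfolded protein response chaperones, 13 were above in RNA (against 5.56% of all genes) and 11 in RPFs (against 8.41%), with none below. All of those called were falls short of the sum. The RNA count was 7 without WT mouse 1 and 4 without WT mice 1 and 3, and the RPF count was 4 without both. Creld2, an endoplasmic reticulum stress protein, was at 71.0, 42.3 and 41.6 CPM of RNA in WT, 15.7, 15.5 and 21.2 in B, 14.8, 15.3 and 16.5 in M, and 16.5, 15.1 and 19.8 in BM. The groups other than WT overlapped, the fold changes multiplied would give 5.26 CPM, and the interaction was 1.71 ± 0.28 in RNA and 1.56 ± 0.35 in RPFs. Manf, a secreted stress factor, was at 116, 104 and 99.1 CPM in WT against 51.4 to 64.3 in the other mice, with 0.79 ± 0.14 in RNA. Hspa5, the BiP chaperone of the endoplasmic reticulum, was at 2535, 1611 and 2027 CPM in WT against 873 to 1523 in the others, with 0.89 ± 0.25 in RNA (adjusted p = 0.0328). Without WT mouse 1 the RNA value of Hspa5 was 0.69, and the call was lost.

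Of 22 acute phase proteins, which the liver secretes in inflammation, 1 was below the sum in each assay (against 7.27% and 11.3% of all genes). The RPF count below was 0 without WT mouse 1 or 2, B mouse 1, M mouse 3 or BM mouse 2. The others called followed the form of the chaperones. Above the sum were 8 in RNA (against 5.56%) and 10 in RPFs (against 8.41%), each a fall short of the sum. The RNA count was 5 without B mouse 2 or BM mouse 2, and without WT mice 1 and 3 it was 1 in RNA and 3 in RPFs. Hp, the haemoglobin scavenger haptoglobin, was at 4717, 2774 and 3319 CPM of RNA in WT, 858, 657 and 626 in B, 1332, 1662 and 1061 in M, and 720, 967 and 684 in BM. WT was above all others and BM overlapped B, with an interaction of 1.56 ± 0.27 in RNA and 1.32 ± 0.21 in RPFs. Saa1, a serum amyloid A with a near-identical neighbour, Saa2, showed the spread of the WT mice, at 652, 58.8 and 603 CPM of RNA in WT against 4.06, 4.51 and 3.75 in B, 8.48, 25.8 and 5.86 in M, and 3.05, 2.49 and 2.56 in BM. Its RNA interaction of 4.35 ± 1.50 (adjusted p = 0.0845) lost its call in 9 of 12 single removals, over which it ran from 3.91 to 5.31. In RPFs the interaction of Saa1 was 3.91 ± 0.97 (adjusted p = 0.0171) and kept its call in all 12 single removals. Without WT mice 1 and 3 the value for Saa1 was 1.45 in RNA (adjusted p = 0.34) and 1.36 in RPFs (adjusted p = 0.37). Fgl1, a liver-secreted fibrinogen-like protein, was at 704, 401 and 570 CPM of RNA in WT and at 45.6 to 112 in the 9 other mice, with 2.68 ± 0.38 in RNA and 2.54 ± 0.40 in RPFs. The part of the WT mice with high acute phase counts in these results was not tested beyond these removals.

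**Figure D3:**
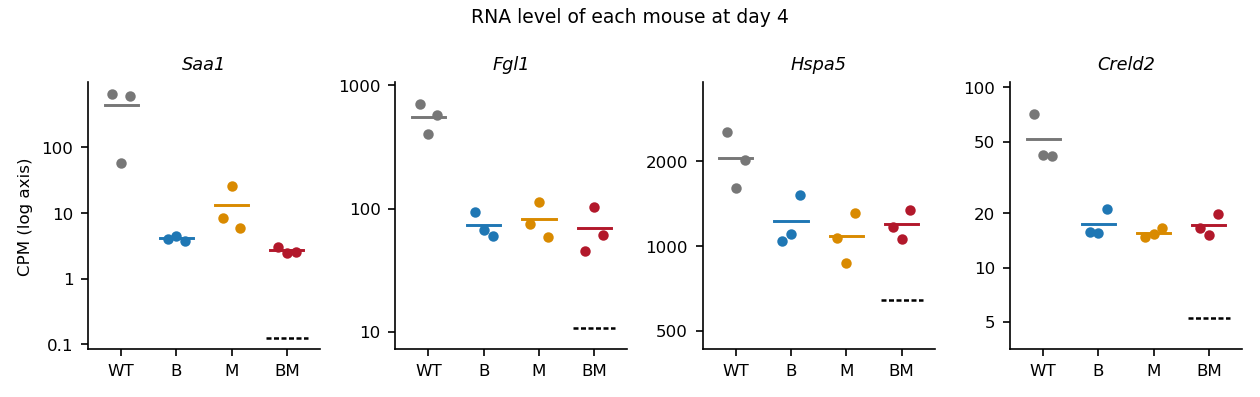
RNA level in CPM (log axis) of Saa1, Fgl1, Hspa5 and Creld2 in each of the 3 mice of WT, B, M and BM (points), with group means as bars and a dashed tick over BM at the level of multiplied fold changes. WT is highest in each panel, and for Saa1 WT mouse 2 (58.8) lies about an order of magnitude under WT mice 1 and 3 (652 and 603).

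Other lists had few calls, to be read against 5.56% of all genes above and 7.27% below in RNA and 8.41% and 11.3% in RPFs, and most of these counts moved by over 1.5 times when 1 mouse was left out. In RNA 1 of 20 hepatocyte transcription factors was below the sum and none of 12 YAP and TEAD targets was called. Of 10 beta-catenin feedback targets 1 was above and 1 below in RNA, and 2 were above in RPFs. Over single removals the feedback counts ran from 0 to 2 above and 0 to 1 below in RNA, and from 0 to 4 above in RPFs (0 without WT mouse 2, WT mouse 3, B mouse 1, M mouse 1, M mouse 3 or BM mouse 2, and 4 without B mouse 2). Interferon-stimulated genes had 3 of 24 below in RNA and 1 of 25 in RPFs, where the count was 5 without B mouse 1 and 2 without WT mouse 1 or M mouse 3. Fatty acid oxidation and ketogenesis had 5 of 24 below in RNA, a count that was 2 without M mouse 1 or BM mouse 1 and 3 without WT mouse 3, B mouse 1 or BM mouse 3. The integrated stress response had 4 of 16 genes above and 1 below in RPFs. In RNA 2 of its 14 genes were above, and 1 in each single removal apart from those of WT mouse 1, WT mouse 3, B mouse 2, B mouse 3 and M mouse 3. Coagulation and complement had 5 of 25 below in each assay. In RNA the count was 2 when WT mouse 3, M mouse 1, BM mouse 1 or BM mouse 3 was left out, 3 for M mouse 2 and 8 for BM mouse 2, and the RPF count was 10 for BM mouse 2. Hepatocyte markers had 3 of 12 below in each assay, and in RPFs 5 without M mouse 2 and 6 without BM mouse 2.

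Markers of other cell types in the liver were counted in the same way. In RNA 2 of 13 Kupffer cell, 1 of 14 endothelial and 2 of 12 stellate cell markers were below (against 7.27% of all genes), and in RPFs 2, 5 and 3 (against 11.3%), with none above. Over single removals the Kupffer count ran from 0 to 8 in each assay. It was 0 without WT mouse 1 or B mouse 1 in both, and without M mouse 2 in RNA, and it was 8 without M mouse 3 in both. The endothelial count ran from 1 to 4 in RNA (4 without M mouse 3) and from 1 to 6 in RPFs (1 without M mouse 2). The stellate count ran from 0 to 2 in RNA (0 without B mouse 1, M mouse 1 or BM mouse 1) and from 0 to 3 in RPFs (0 without M mouse 2). No Kupffer or endothelial marker was called below in either assay without WT mice 1 and 3. None of 7 cholangiocyte markers was called in either assay. In RPFs 2 of 6 lymphocyte and neutrophil markers were above and 1 below (against 8.41% and 11.3% of all genes), and 1 of 4 erythroid markers was below. The count above was 1 without WT mouse 1 or 3, B mouse 1 or 2, M mouse 1 or BM mouse 3. The erythroid count was 0 without WT mouse 1 or 3, B mouse 1 or 3, M mouse 1 or 3, or BM mouse 1. The summed RNA level of endothelial markers was 564 to 588 CPM in WT and 364 to 408 in BM, and that of stellate markers 499 to 549 and 276 to 349. The part of these cells in the results for hepatocyte genes was not tested.

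**Figure D4:**
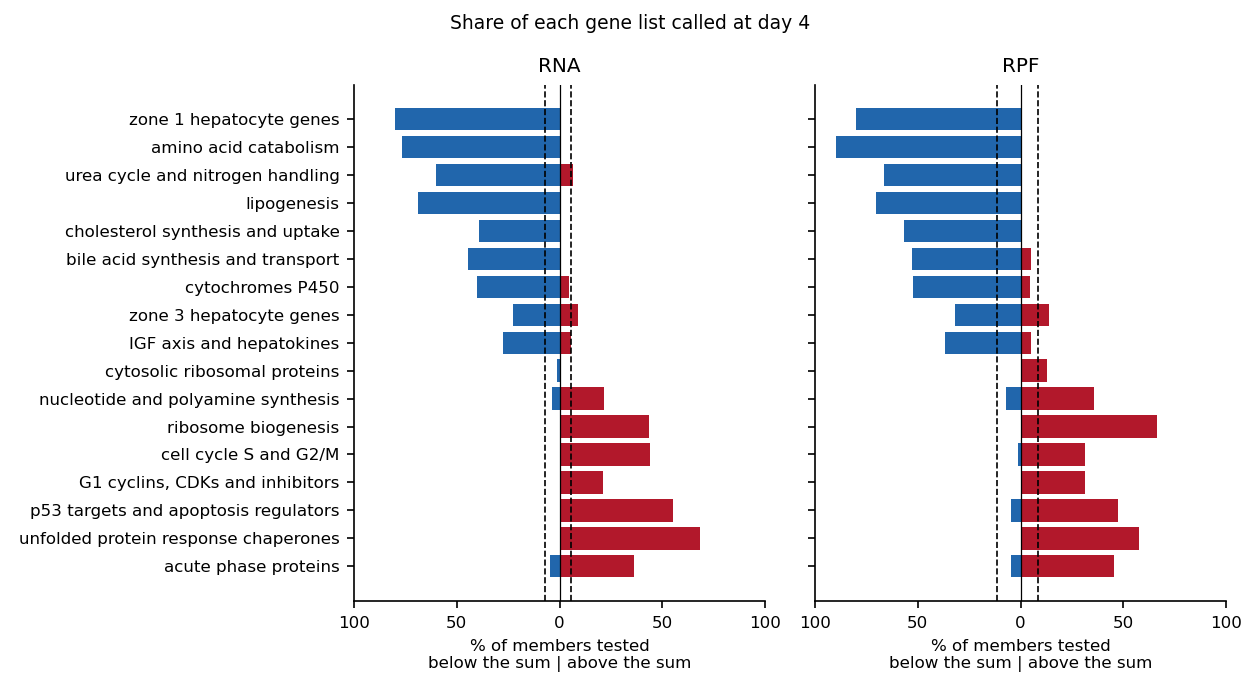
Share of the tested members of 17 gene lists called above the sum (red, to the right) or below it (blue, to the left), in percent, for RNA and RPF, with dashed lines at the share of all genes tested (5.56% above and 7.27% below in RNA, 8.41% and 11.3% in RPFs). Zone 1 genes, amino acid catabolism and lipogenesis have calls on the left side only, and ribosome biogenesis and unfolded protein response chaperones on the right side only.

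The counts of the lists that follow were lower when all 24 libraries of an assay shared 1 estimate of the spread. Over all genes, 195 of 12040 were then above and 345 below in RNA, and 289 of 12000 above and 412 below in RPFs. Below the sum there were then 9 zone 1 genes in RNA and 8 in RPFs, 15 and 11 genes of amino acid catabolism, 4 and 3 of the urea cycle, 8 and 8 of lipogenesis, 2 and 4 of cholesterol synthesis, 4 and 6 of bile acid synthesis, 10 and 14 cytochromes P450 and 1 and 1 of the IGF axis. Zone 3 genes had 1 above and 1 below in RNA and none called in RPFs. Above the sum there were 17 and 11 cell cycle genes, 2 and 4 of G1, 4 and 7 p53 targets, 4 and 8 ribosome biogenesis factors, 1 and 4 of nucleotide synthesis, 2 and 7 acute phase proteins, and 4 unfolded protein response chaperones in RNA and 1 in RPFs. No cytosolic ribosomal protein was called in either assay in that fit.

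The interaction of day 4 was then set against that of day 10, which had its own mice of each genotype, WT included. The interaction was higher at day 4 in RNA of 706 of 12040 genes (5.86%) and lower in 541 (4.49%), and in RPFs it was higher in 1148 of 12000 (9.57%) and lower in 1002 (8.35%). Without BM mouse 1 of day 10 these counts were 1572 and 923 in RNA and 2478 and 1900 in RPFs. The interaction of zone 1 genes changed sign between the days, with a median of -1.18 at day 4 and 1.39 at day 10 in RNA. In each assay 14 of 20 were lower at day 4. Hal gave -3.01 at day 4 and 2.90 at day 10 in RNA, a difference of -5.92. Cell cycle genes turned in the other direction. Their median RNA interaction was 0.92 at day 4 and -1.11 at day 10, with 49 members higher at day 4 in RNA and 64 in RPFs, and none lower. Mki67, which gave 1.16 at day 4, gave -3.06 at day 10 in RNA. Lipogenic Fasn differed from these, at -1.07 and -1.24, and Ncl was above the sum on both days, at 0.53 and 0.77. The differences between the days for Fasn and for Ncl did not pass the threshold in RNA (adjusted p = 0.92 and adjusted p = 0.65). Levels and single effects of day 10 are not given here. The sign of a day 10 interaction therefore does not say whether BM stood above or below WT. What leaving out BM mouse 1 of day 10 did to these lists and genes is not given here either.

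**Figure D5:**
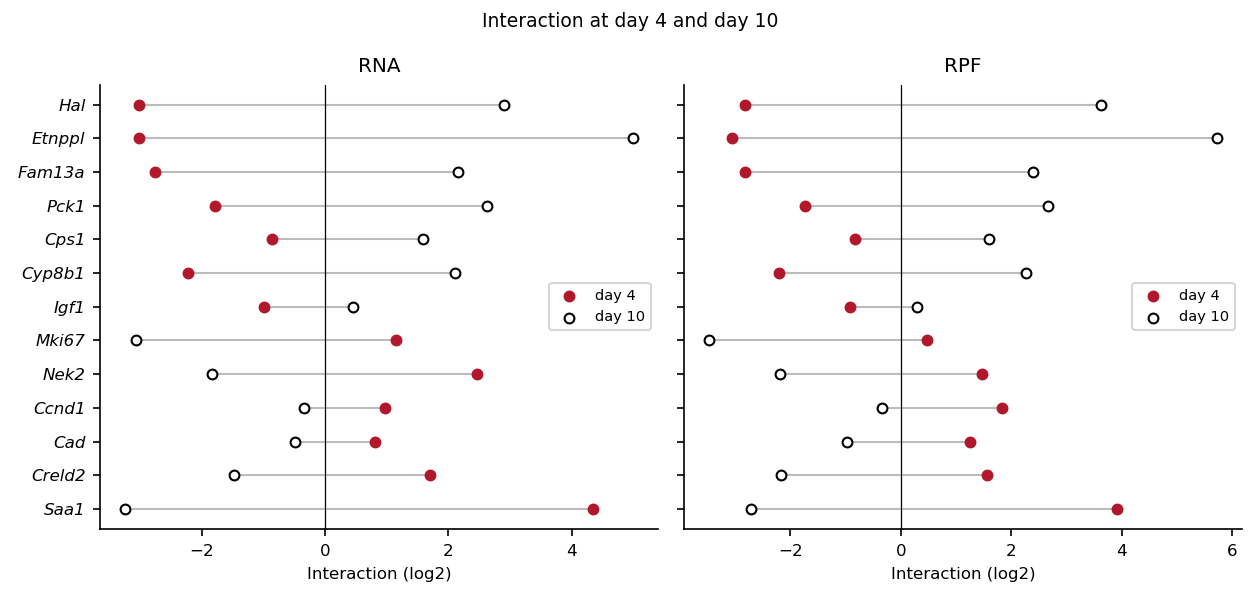
Fitted log2 interaction in RNA and RPFs at day 4 (filled points) and at day 10 (open points) for 13 genes, with a line that joins the days. Hal, Etnppl, Pck1, Cps1 and Cyp8b1 lie below 0 at day 4 and above 0 at day 10, while Mki67 and Nek2 lie above 0 at day 4 and below 0 at day 10.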

How the data were processed

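RPF and cytoplasmic RNA libraries were made from the liver of 3 individual mice per genotype (WT, B, M, BM) 4 days after virus. Groups and replicate numbers came from the titles. RPF reads were trimmed (cutadapt 1.18), deduplicated by molecular identifier and aligned to 1 transcript per gene, its most abundant coding transcript, and the authors deposited raw counts per coding sequence. For RNA the authors aligned with Bowtie2 2.3.5.1, and the deposited RSEM 1.3.3 expected counts per isoform were summed per gene here and rounded, at least 99.92% being whole already. Of 16269 RPF transcripts, 2198 to 3019 had no line in a library and were taken as 0. For positions, 20614 of 20622 genes matched GENCODE vM39 on GRCm39, and promoters came from RefSeq on GRCm38.p6. Counts of near-identical paralogs are uncertain.

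RNA and RPF counts were fitted separately over 12 libraries with edgeR 4.0.16 (R 4.3.3) by the quasi-likelihood F test, with TMM factors, filterByExpr (minimum count 10, total 15) and Benjamini-Hochberg adjustment over all genes of the assay. The SE is the absolute log2 interaction divided by the square root of F. The fit of the difference between the days used all 24 libraries of an assay. Called genes with at most 3 counts in every mouse of a group (3 in RNA, 6 in RPFs) are in the counts by the sign of the fit, which depends on the prior count of 0.125, and none is given a value. The procedure was tested on simulated counts with the same spread for every gene and no outlying mouse, unlike these data. Alternatives were DESeq2 1.42.0, RLE factors, other filters, a threshold of 0.05, a replicate block, a fit of 24 libraries, thinning, and leaving out each mouse. The members and lists were chosen with earlier results of these data known. Cell cycle genes came from Seurat 5.3.0, and the other lists were written by hand or by symbol. Some genes are in several lists, so the lists are not separate sets. Genes named were the 8 called genes with the largest absolute interaction per assay and direction (mean of at least 20 counts, no group at 3 counts or fewer), list members called the same way in both assays, up to 4 called members of each list with the smallest p, and 10 genes on which the study turns or that check its genotypes. TPM, FPKM and isoform percent values were not used, and F9, H19, Mx1 and Tead1 were not analysed here.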

Additional observations from a re-analysis of the deposited data

Results flagged for a closer look

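The interaction differed between the days, as tested by its contrast over 24 libraries of an assay with edgeR's quasi-likelihood test and Benjamini-Hochberg adjustment. In RNA it was higher at day 4 in 706 genes and lower in 541, and in RPFs it was higher in 1148 and lower in 1002. The mice of the days were different, and they were induced at different times and harvested together.

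Several genes had a lower interaction at day 4, among them enzymes of zone 1. The difference, day 4 minus day 10 on the log2 scale, was -5.92 in RNA and -6.44 in RPFs for Hal, -8.02 and -8.76 for Etnppl, and -4.41 and -4.39 for Pck1. For Cps1 it was -2.46 in RNA and -2.42 in RPFs. Cyp8b1 differed by -4.35 in RNA and -4.47 in RPFs, Igf1 by -1.46 and -1.21, and Fam13a by -4.92 and -5.18. The interaction of Igf1 at day 10 did not pass the threshold in RNA (0.45, adjusted p = 0.252) or in RPFs (0.30, adjusted p = 0.426).

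Others had a higher interaction at day 4. Mki67 differed by 4.20 in RNA and 3.96 in RPFs, Nek2 by 4.26 and 3.66, Ccnd1 by 1.28 and 2.19, and Cad by 1.28 and 2.25. Creld2 and Saa1, which were high in WT at day 4, differed by 3.16 and 7.57 in RNA and by 3.74 and 6.63 in RPFs. The largest adjusted p among the genes listed was 0.0663 (Ccnd1 in RPFs). WT mice 1 and 3 of day 4 had high acute phase counts, and their part in the difference for Saa1 was not tested.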

How the results depend on the processing

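At an adjusted p under 0.05, 361 genes were above the sum in RNA and 622 in RPFs. In a fit of 24 libraries the counts above and below were 195 and 345 in RNA, and 289 and 412 in RPFs. Without WT mice 1 and 3, a choice made after seeing the data that leaves 1 WT mouse assumed to vary like the others, they were 167 and 390 in RNA, and 284 and 507 in RPFs. Leaving out each mouse gave 360 to 725 above and 587 to 943 below in RNA, and 654 to 1006 above and 985 to 1344 below in RPFs. For the difference between the days, leaving out each mouse gave 513 to 1572 higher and 381 to 923 lower in RNA, and 929 to 2478 higher and 805 to 1900 lower in RPFs, the highest count each time without BM mouse 1 of day 10. DESeq2 called 445 above and 692 below in RNA, and 950 and 1068 in RPFs. Among values of named genes, the RNA interaction of Bhlhe40 was 0.37 with the transcript used for RPFs only and the RPF interaction of Amy2a3 ran from -4.55 to 0.0031 over single removals, the latter without M mouse 3, and 0.37 and 0.0031 are opposite in sign to the values with all data. Of 429 called values of named genes, 319 held in every removal of a single mouse, 406 under DESeq2, 182 in the fit of 24 libraries and 229 without WT mice 1 and 3. The cause of these changes was not tested.

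The replicate numbers did not pair the mice: correlations of deviations between same-numbered samples ran from -0.0601 to 0.106 in RNA and from -0.106 to 0.107 in RPFs. With the replicate block, 723 genes were above and 927 below in RNA, and 870 and 1241 in RPFs, and the difference between the days gave 769 higher and 607 lower in RNA, and 1154 and 948 in RPFs.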
